A study of Mus musculus with 12 samples.

Results

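Homer1 was followed through the 2 probe sets annotated to this gene alone, called probe sets A and B, out of 12411 probe sets of the array that were not controls. The genes and lists of this report were chosen with earlier results of these data known. Within Homer1, both probe sets were taken by annotation and not by their values. Each was read on 12 Affymetrix MG-U74B arrays of mouse hippocampus, with 3 arrays in each of 4 groups, namely control animals given saline, control animals given kainate, mutant animals given saline and mutant animals given kainate. Kainate activates ionotropic glutamate receptors and provokes seizures. It was injected into the peritoneum at 20 mg/kg, and all animals were killed 1 h after the injection of kainate or saline. They were male and female littermates of 5 to 6 weeks that had been caged singly and handled for 5 days. Each array held the RNA of 3 pooled animals, so an array is a pool and not a single mouse. By the title of the series, the mutant animals lack CREB and CREM, a pair of related transcription factors that respond to cAMP. The sources used here do not give the alleles, the strain or any Cre driver. The question behind the series is whether this loss changes the transcriptional response of the hippocampus to kainate.

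Homer1 encodes a scaffold of the postsynaptic density. Its EVH1 domain binds proline-rich motifs in group I metabotropic glutamate receptors, inositol trisphosphate receptors and Shank proteins, and the coiled coil of the long Homer forms joins such partners into one complex. The gene is known for a short form, Homer1a, which lacks the coiled coil, is made within the first hour after strong neuronal activity through use of an earlier transcript end, and uncouples the complexes held by the long forms. The sources used here do not say which Homer1 transcript each probe set detects. The table therefore cannot show which signal belongs to a short and which to a long form, and the probe sets are kept apart by their letters.

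Homer1 lies on mouse chromosome 13 at positions 93303757 to 93405129 of GRCm38.p6 on the forward strand, and the RefSeq table lists 5 transcripts for it. Since the series concerns factors that bind the cAMP response element, the 250 bases before the first annotated start are shown from RefSeq (GRCm38.p6, chr13:93303507-93303756, forward strand, 5′ to 3′), with capitals for each half-site TGACG.

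Homer1: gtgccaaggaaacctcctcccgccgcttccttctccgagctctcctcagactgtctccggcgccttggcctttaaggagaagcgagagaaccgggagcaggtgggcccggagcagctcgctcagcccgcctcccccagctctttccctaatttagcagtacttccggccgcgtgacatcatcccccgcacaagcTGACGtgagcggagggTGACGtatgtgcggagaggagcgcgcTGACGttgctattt

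This window held 3 half-sites, all on the forward strand, beginning 56, 40 and 14 bases before the start. Both strands were searched. Of 32851 windows of 250 bases before annotated starts, 17.8% held at least 1 half-site on either strand and 0.688% held 3 or more. The full element TGACGTCA, which contains a half-site on each strand, was in 1.55% of all windows and not in this one. Neither TATAA, present in 22.8% of windows, nor the CArG box to which SRF binds, present in 1.47%, was in the window. A second annotated Homer1 start has its own window (chr13:93307784-93308033, forward strand), which held none of these 4 motifs. A match describes the letters of the sequence and was not tested as a binding site.

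The targeted genes and the state of the arrays were checked first. The Creb1 probe set had higher values in the arrays labelled mutant, from 7.64 to 8.47 on the log2 scale against 6.83 to 7.58 in control arrays. The Crem probe set lay between 2.82 and 3.35 on all arrays, below the value of 4 required for testing. No source used here places the Creb1 probes inside or outside the deleted part, so these probe sets check no label and the arrays are called labelled mutant. Array medians lay between 3.77 and 4.07 on the log2 scale. In control arrays they were 3.77 to 3.90 with saline and 3.93 to 4.07 with kainate, without overlap. In labelled mutant arrays they were 3.87 to 4.04 with saline and 3.84 to 3.94 with kainate, which overlapped. The difference between the 3′ and 5′ probe sets of the actin control, a sign of RNA quality, lay between 1.44 and 1.82 log2 units, and the ranges of the 4 groups overlapped. For the Gapdh control it lay between -0.42 and -0.03, and the group ranges overlapped as well. The arrays of replicate number 1 had the lowest Gapdh differences, -0.42 to -0.36, below all arrays of numbers 2 and 3. Of the principal neuron markers of the hippocampus, 5 of 13 were tested and their mean log2 level lay between 8.69 and 9.61 on all arrays, among them the glutamate transporter gene Slc17a7. Values of arrays that share a replicate number tended to move together, so fits with the replicate number as a block (a term for each number) are given where they change a call.

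Kainate raised the signal of probe set A on every pair of arrays, while that of probe set B stayed within a narrow range. In control saline arrays probe set A had log2 values of 4.11, 4.25 and 4.01 for replicate numbers 1, 2 and 3. In control kainate arrays the values were 5.84, 5.19 and 4.64. In labelled mutant arrays they were 4.19, 4.17 and 4.17 with saline and 6.05, 5.92 and 5.02 with kainate. All 6 kainate arrays thus lay above all 6 saline arrays, an arrangement seen in this direction for 0.71% of the 6334 tested probe sets. The lowest kainate value belonged to number 3 in both genotypes and the highest to number 1.

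**Figure D1:**
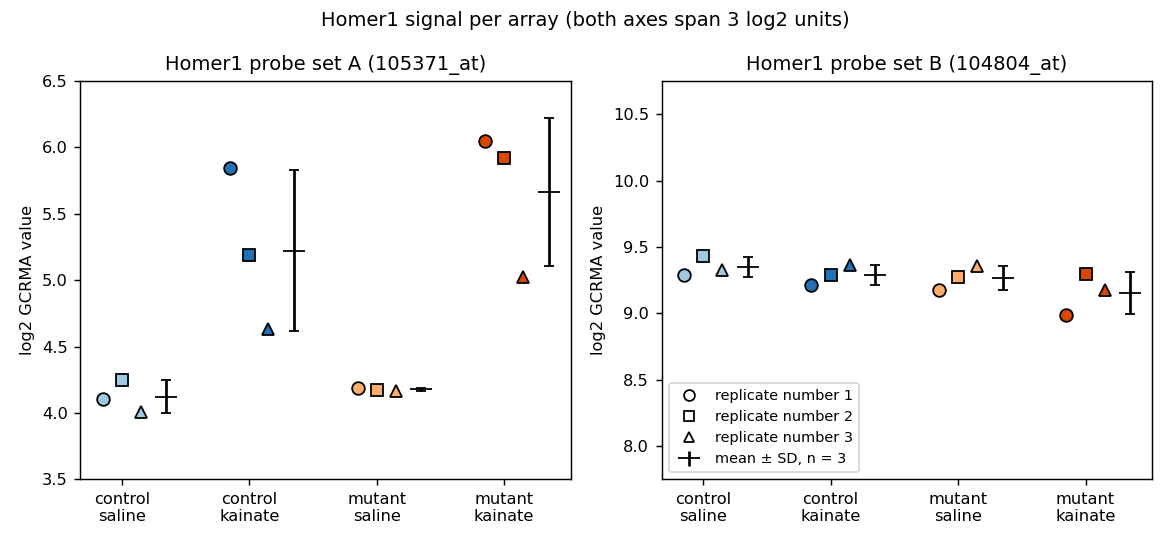
Log2 GCRMA value (vertical axis, both panels spanning 3 log2 units) of the Homer1 probe sets A (left) and B (right) on each of the 12 arrays, by group (horizontal axis), with 1 symbol for each replicate number and the mean ± SD of 3 arrays as a bar. For probe set A the kainate arrays sit between 4.64 and 6.05, above the saline arrays at 4.01 to 4.25, and for probe set B all arrays sit between 8.99 and 9.43.

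The order of the group means of probe set A was control saline (4.12 ± 0.124, SD, n = 3), labelled mutant saline (4.18 ± 0.0112), control kainate (5.22 ± 0.604) and labelled mutant kainate (5.66 ± 0.558). The saline groups overlapped, and so did the kainate groups, so neither pair of neighbours was apart by more than its spread. The gap between labelled mutant saline and control kainate was the one that separated non-overlapping values. The spread was wider after kainate than with saline in both genotypes. Saline values lay close above the array medians, in the percentiles 52.6 to 55.6 of all probe sets on their array, and kainate values in the percentiles 60.7 to 75.4. Mean levels of the principal neuron markers, 8.69 to 9.51 on saline and 8.98 to 9.61 on kainate arrays, overlapped between treatments. Of 11 interneuron markers 3 were tested, and their mean level was 7.91 to 8.17 in control saline, 6.87 to 7.56 in control kainate, 7.88 to 8.18 in labelled mutant saline and 7.47 to 7.91 in labelled mutant kainate arrays. Their part in the change of probe set A was not tested.

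The kainate change of probe set A in control arrays was 1.10 on the log2 scale (2.14-fold, 95% interval 0.42 to 1.78). It did not pass the test over all tested probe sets (limma adjusted p = 0.398, and 0.0639 with the replicate number as a block), where 0.158% of probe sets passed without the block and 0.584% with it. By replicate number the change was 1.74, 0.94 and 0.63. In labelled mutant arrays the change was 1.49 (2.80-fold, 95% interval 0.81 to 2.16) and missed the threshold without the block (limma adjusted p = 0.194). It passed with the block (limma adjusted p = 0.0154), as did 0.363% of tested probe sets, against 0.174% that passed without it. By number this change was 1.86, 1.75 and 0.86. Number 3 gave the smallest change in each genotype. The blocked call in labelled mutant arrays was lost when replicate 2 of labelled mutant saline (adjusted p = 0.131) or replicate 2 of labelled mutant kainate (adjusted p = 0.0929) was left out, and kept in the other 10 of 12 such fits. Without all arrays of number 2 or number 3 it was also lost (limma adjusted p = 0.442 and 0.134). With a number left out, the probe sets called in this blocked comparison ran from 1 without number 3 to 737 without number 1.

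Averaged over both genotypes, probe set A rose by 1.29 (2.45-fold, SE 0.216, 95% interval 0.81 to 1.77) and passed (limma adjusted p = 0.0323, and 0.00258 with the block). Of all tested probe sets 0.41% passed in this comparison, or 7.63% with the block. Among the 19 that rose without the block, probe set A was the 7th by size, between Spry2 at 1.36 and Rgs4 at 1.20. All of the larger changes had a smaller SE except that of Trib1 (SE 0.248). With each array left out in turn, the unblocked call held in 4 of 12 fits, those without replicate 1 or 3 of control kainate or of labelled mutant kainate. It was lost without any one of the saline arrays or without replicate 2 of either kainate group, with adjusted p up to 0.114. Over all 12 fits the change ran from 1.14 to 1.45. With the block the call held in 12 of 12 such fits. Without all 4 arrays of a number, the unblocked call held without number 1 and was lost without number 2 (limma adjusted p = 0.999) or number 3 (0.091), and the blocked call was lost without number 2 (0.0887). The number of probe sets called, 26 without and 483 with the block, ran from 14 to 244 and from 54 to 1082 with 1 array left out. With a number left out it ran from 1 without number 3 to 1414 without number 1, or from 9 to 1568 with the block. The background shares thus move as well. After each array was centred on its median the unblocked change was 1.25 and missed the threshold (limma adjusted p = 0.0804).

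The response of probe set A did not differ detectably between genotypes. It was 0.39 larger in labelled mutant arrays, with a 95% interval from -0.57 to 1.34 (limma adjusted p = 1, and 0.738 with the block). A response larger in labelled mutant arrays by 1 log2 unit thus lay within the interval. The 0.39 became 0.09 without replicate 3 of control kainate and 0.71 without replicate 3 of labelled mutant kainate. No probe set passed this comparison with limma (0% called), although 147 had an unadjusted p under 0.05, or 566 with the block. With saline the genotypes differed by 0.06 (interval -0.62 to 0.73) and with kainate by 0.44 (interval -0.24 to 1.12, limma adjusted p = 0.914, with the block 0.398). With kainate the labelled mutant array was the higher one for each of the 3 numbers, by 0.21, 0.73 and 0.39, and the ranges of the groups overlapped. Leaving out the same arrays moved the 0.44 to 0.15 and 0.76. These comparisons share arrays with each other and are not independent. In them 0% (saline) and 0.0632% (kainate) of probe sets passed, or 0.142% and 0.111% with the block.

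The signal of probe set B was high and nearly level. Its log2 values were 9.29, 9.43 and 9.33 in control saline arrays and 9.22, 9.29 and 9.36 in control kainate arrays. In labelled mutant arrays they were 9.18, 9.27 and 9.36 with saline and 8.99, 9.30 and 9.17 with kainate. The groups overlapped, and replicate 1 of labelled mutant kainate was the lowest array. In falling order the group means were control saline (9.35 ± 0.076), control kainate (9.29 ± 0.0735), labelled mutant saline (9.27 ± 0.0908) and labelled mutant kainate (9.15 ± 0.155), and no neighbours were apart by more than their spread.

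The kainate change of probe set B was -0.06 in control arrays (interval -0.29 to 0.18) and -0.11 in labelled mutant arrays (interval -0.35 to 0.12). Averaged over genotypes it was -0.09, with an interval from -0.25 to 0.08 (limma adjusted p = 0.635, with the block 0.389), and 4 of 6 pairs of arrays with the same number were lower with kainate. This interval leaves room for a fall of 0.25 on the log2 scale and for a rise of 0.08. The genotypes differed by -0.08 with saline and -0.14 with kainate, and by -0.11 on average (interval -0.27 to 0.06, limma adjusted p = 0.999, with the block 0.514). None of the 7 comparisons passed for this probe set with or without the block. Levels of different probe sets depend on their probes, so the higher signal of probe set B does not say that its transcript was more abundant.

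**Figure D2:**
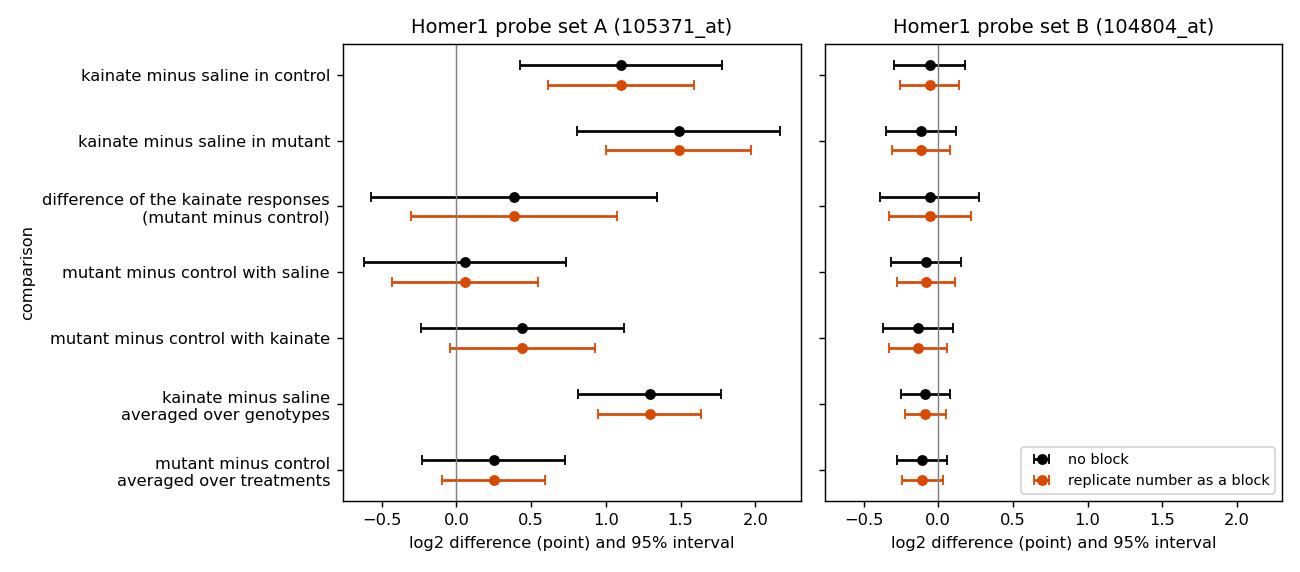
Fitted log2 difference (point) and 95% interval (bar) on the horizontal axis for the 7 comparisons (vertical axis) of the Homer1 probe sets A (left) and B (right), without a block (black) and with the replicate number as a block (orange). For probe set A the intervals of the kainate changes lie above 0 and those of the genotype differences include it, while all intervals of probe set B include 0.

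Setting the probe sets against each other within an array removes any shift that adds equally to both. The log2 difference of probe set A minus probe set B had a mean of -5.23 ± 0.0814 (SD, n = 3) with saline and -4.07 ± 0.678 with kainate in control arrays. It was -5.09 ± 0.102 in labelled mutant arrays with saline and -3.49 ± 0.613 with kainate. The difference rose with kainate in 6 of 6 pairs of arrays with the same number, by 0.59 to 2.04. The mean rise was 1.38 (2.60-fold), with an exact two-sided permutation p = 0.005 over 400 arrangements of treatment within genotype (0.01 adjusted over the 2 tests of this kind), the smallest that these permutations can give. This test reuses the values of probe set A from the fits above and was not adjusted over all tested probe sets. It is thus not independent of those fits. Within a genotype the rise was 1.16 for control and 1.60 for labelled mutant arrays, each with an exact permutation p = 0.1, the smallest that 3 against 3 arrays allow. The signals of the probe sets thus changed unequally with kainate over both genotypes together. The difference spread more widely between kainate arrays than between saline arrays.

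**Figure D3:**
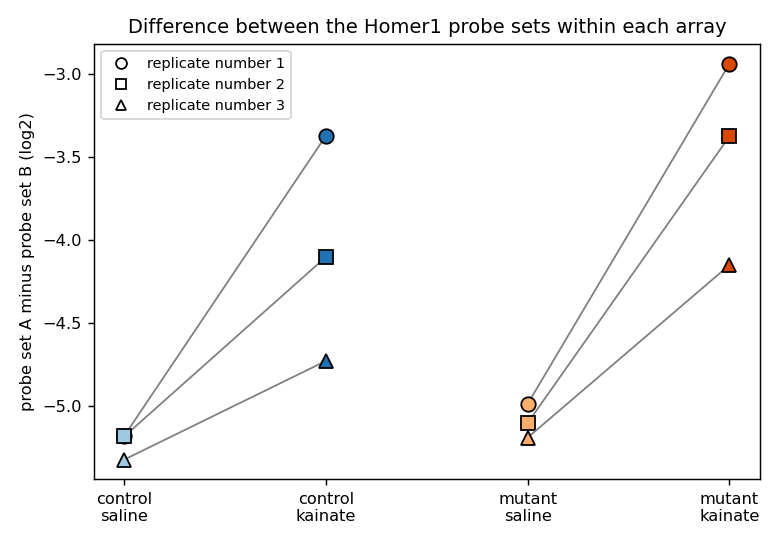
Log2 difference between the Homer1 probe sets, probe set A minus probe set B, within each of the 12 arrays (vertical axis) by group (horizontal axis), with grey lines joining saline and kainate arrays of the same replicate number. Every line rises, from values of -5.32 to -4.99 with saline to values of -4.73 to -2.94 with kainate.

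The same difference was also compared between genotypes. It was higher in labelled mutant arrays by 0.36 on average, and the exact two-sided permutation p was 0.16 over 400 arrangements of genotype within treatment. In 6 of 6 pairs of arrays with the same number and treatment the labelled mutant array had the higher value, by 0.08 to 0.72. An exact sign-flip test within these pairs, which use the replicate number as a block, gave p = 0.0312, the smallest possible for 6 pairs. The test treats pairs that share a number as independent, so its p can be too small. The 0.36 became 0.19 without replicate 3 of control kainate and 0.53 without its replicate 1. The genotype call thus depended on whether the numbers were treated as pairs. The kainate call was made both ways, with the same limit on its exact sign-flip p = 0.0312. Whether the kainate rise of this difference was itself unequal between genotypes was not tested.

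Across the 12 arrays the Homer1 probe sets were correlated at r = -0.55, or r = -0.57 after the mean of each replicate number was subtracted. These are descriptions over arrays that share treatment, scaling and pools. The probe sets most like probe set A over the 12 arrays were those of Srf (r = 0.95), the transcription factor that drives many early response genes, and Fbxo33 (r = 0.94), an F-box component of ubiquitin ligases. They were followed by the respiratory assembly factor gene Coa7 (r = 0.94), Rgs4 (r = 0.91), which accelerates GTP hydrolysis by G proteins, the corepressor gene Irf2bp2 (r = 0.91), the GTPase gene Gimap6 (r = 0.90), the ERK phosphatase gene Dusp5 (r = 0.90) and the arrestin-domain gene Arrdc3 (r = 0.87). Subtracting the number means kept Srf (r = 0.97) and Fbxo33 (r = 0.96) first and brought in Spry2 (r = 0.95), an inhibitor of receptor tyrosine kinase signalling, and Maff (r = 0.93), a small Maf transcription factor, in place of Irf2bp2 and Arrdc3. The likeness of Srf belongs to 1 of its 3 tested probe sets, which gave 0.73 with kainate averaged over genotypes (limma adjusted p = 0.108, with the block 0.0133), while the others gave 0.64 and -0.43.

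The probe sets most like probe set B were other genes. Over the 12 arrays they were Fam168a (r = 0.88), Snapc3, a subunit of the factor for small nuclear RNA genes (r = 0.88), the fucosyltransferase gene Fut9 (r = 0.88), the cullin gene Cul4b (r = 0.88), Twistnb (r = 0.87), Zfp871 (r = 0.87), the integrin gene Itga4 (r = 0.86) and the semaphorin receptor gene Plxna2 (r = 0.85). After the number means were subtracted, Nubpl (r = 0.86) and the kinesin gene Kif5a (r = 0.84) came first, and the nucleotidase gene Nt5c (r = 0.82) and the sorting nexin gene Snx25 (r = 0.82) also entered. None of these genes passed for kainate in either genotype or averaged.

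Of the Homer family, Homer2 was also measured and Homer3 was not analysed here. Homer2 encodes a long form with EVH1 domain and coiled coil. Its log2 values were 6.99, 7.19 and 6.92 in control saline arrays and 7.04, 7.06 and 6.67 in control kainate arrays. In labelled mutant arrays they were 6.42, 6.44 and 6.34 with saline and 6.62, 6.70 and 6.19 with kainate. With saline the labelled mutant values lay below all control values, as was so for 4.33% of tested probe sets in this direction, and with kainate the ranges overlapped.

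Averaged over treatments Homer2 was lower in labelled mutant arrays by 0.53 on the log2 scale (1.44-fold, SE 0.115, -0.53 as a signed difference). This passed with the replicate number as a block (limma adjusted p = 0.0115) and not without it (0.101), where 2.32% and 0.253% of probe sets passed. The labelled mutant array was lower in 6 of 6 pairs. The blocked call was lost without all arrays of number 2 or number 3 (limma adjusted p = 0.184 and 0.217). Probe sets called in such blocked fits ran from 4 without number 2 to 85 without number 1. The averaged kainate difference of Homer2 was -0.01 (interval -0.26 to 0.25). Cell type markers also differed between genotypes. The principal neuron markers had mean log2 levels of 9.20 to 9.51 in control saline and 8.69 to 9.25 in labelled mutant saline arrays, which overlapped, and of 9.45 to 9.61 and 8.98 to 9.09 in the kainate arrays of these genotypes, which did not. Averaged over treatments the median difference of these markers was -0.40, and 1 of 5 was higher in labelled mutant arrays without passing. With the block 2 of 5, Bcl11b (-0.84) and Fibcd1 (-0.61), passed as lower. The mean level of the astrocyte markers was 9.38 to 9.56 and 9.68 to 9.84 with saline and 9.30 to 9.41 and 9.50 to 9.64 with kainate. Averaged over treatments 6 of 7 were higher, and 3 of 7, Aqp4, Mlc1 and Ednrb, passed with the block. Of the microglia markers, 1 of 3, Plek, was higher by 1.24 without the block (limma adjusted p = 0.042), and with the block Siglech (0.61) passed too. The mean level of the 3 was 5.44 to 5.71 in control and 5.90 to 6.33 in labelled mutant arrays with saline, and 5.71 to 5.83 and 6.28 to 6.60 with kainate. Their part in the Homer2 difference was not tested. In these bulk samples fewer cells of a type and less RNA per cell cannot be told apart.

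Among the receptors that Homer proteins bind, Grm5, the gene of the metabotropic receptor mGluR5, gave lower values with kainate. Its probe set had log2 values of 7.72, 8.01 and 7.94 in control saline arrays and 7.39, 6.85 and 6.51 in control kainate arrays. In labelled mutant arrays it had 7.02, 7.79 and 7.51 with saline and 6.74, 6.31 and 6.15 with kainate. Kainate values lay below saline values in both genotypes without overlap, as was so in that direction for 6.27% (control) and 5.46% (labelled mutant) of tested probe sets. The fitted difference was -0.97 for control animals and -1.04 for labelled mutant animals. Averaged over genotypes Grm5 was lower by 1.01 (-1.01 as a signed difference, SE 0.184), which passed with the block (limma adjusted p = 0.0141) and missed the threshold without it (0.0515). The blocked call was lost without all arrays of number 2 or number 3 (limma adjusted p = 0.253 and 0.374). Probe sets called in such blocked fits ran from 9 without number 3 to 1568 without number 1. Interneuron markers also lay lower on control kainate than on control saline arrays. The mean level of the astrocyte markers lay lower with kainate in labelled mutant arrays without overlap. Of these markers 2 of 7 were higher there, the median was -0.08 and none passed. The 1 choroid plexus marker tested was at 4.19 to 5.76 in control kainate against 6.28 to 6.72 in control saline arrays. In labelled mutant arrays it was at 5.08 to 6.83 with kainate and 5.30 to 7.02 with saline, which overlapped. The part of these marker changes in the Grm5 difference was not tested. Itpr1 was not analysed here.

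The remaining tested genes of receptor signalling and calcium stores were the G protein gene Gnaq, the phospholipase C genes Plcb1 and Plcb4 and the inositol trisphosphate receptor gene Itpr2. Their kainate differences averaged over genotypes were -0.14 to 0.22, and none of the 5 tested genes of 17 listed passed without the block. The median over the 5 was 0.02, against 0.01 over all tested probe sets. Of the postsynaptic scaffold genes 7 of 20 were tested and none passed in any of the 7 comparisons without the block. Shank3, a Homer-binding master scaffold, gave 0.33 and 0.16 for its 2 probe sets, and Shank2 gave -0.40. Shank1 was at 2.68 to 3.59 on all arrays and was not tested. Dlgap1, which links Shank proteins to PSD-95, gave -0.14, -0.09, -0.20 and -0.51 for 4 probe sets, of which the last passed with the block alone (limma adjusted p = 0.0351). The list's median was 0.05. Dlg4 was not analysed here.

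Genes of 3′ end processing were examined because the short Homer1 form arises through an earlier transcript end. Of 25 listed genes 8 were tested, and none passed in any comparison without the block. Their changes with kainate averaged over genotypes ran from -0.38 for Nudt21, a cleavage factor subunit, to 0.26 for Cpsf1, with a median of -0.09. With the block Cpsf6, the partner of Nudt21 in cleavage factor I, was lower (-0.33, limma adjusted p = 0.033, other probe sets -0.65, -0.26 and -0.17). For Mbnl2, an RNA-binding regulator of transcript ends, the probe sets disagreed and ran from -0.77 to 0.79, none of them past the threshold without the block. The -0.72 of 1 Mbnl2 probe set passed with the block (limma adjusted p = 0.034). With 7.63% of all tested probe sets called in this blocked comparison, 1 of 8 genes is near the background.

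The rise of probe set A was set beside that of other activity-regulated genes. Of 25 listed activity-regulated effector genes, not all of them synaptic, 11 were tested. Averaged over genotypes without the block, 6 rose with kainate and none was lower, where 0.3% of all tested probe sets rose. They were Dusp5 (2.51), the pseudokinase gene Trib1 (2.38), Spry2 (1.36), Rgs4 (1.20), the neuropeptide precursor gene Vgf (1.17) and Dusp4 (0.82, second probe set 0.29), a further MAP kinase phosphatase. With the block Dusp6 (0.74), also a phosphatase of ERK, rose as well (limma adjusted p = 0.0381). Others did not pass, such as the pentraxin gene Nptx1 at -0.02 and the neuritin gene Nrn1 at 0.02. The median of the 11 was 0.82. Within control arrays 4 rose (median 0.77), where 0.158% of all tested probe sets passed in either direction. Within labelled mutant arrays 6 rose (median 1.30), where 0.174% passed. The difference between the 2 responses had a median of 0.20 over the 11 genes, and none passed the test of that difference. Dusp4 was the 1 effector that passed between genotypes with kainate, higher by 1.30 in labelled mutant arrays (limma adjusted p = 0.0108), while its second probe set gave -0.03 (0.993). Of 25 listed immediate early transcription factors 8 were tested and 4 rose, namely Maff (2.40), Csrnp1 (2.19), the AP-1 subunit gene Fosl2 (1.04) and the orphan receptor gene Nr4a3 (0.51), with a median of 0.54. Within control arrays 3 rose (median 0.62) and within labelled mutant arrays 3 (median 0.46), beside the same shares of all tested probe sets as above. The difference between these responses had a median of -0.22. With the block Klf6 (0.58), a zinc finger factor, also rose, and the representative Srf probe set (-0.43) was lower. These lists were drawn up with earlier results of these data known, so their direction is not independent evidence.

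**Figure D4:**
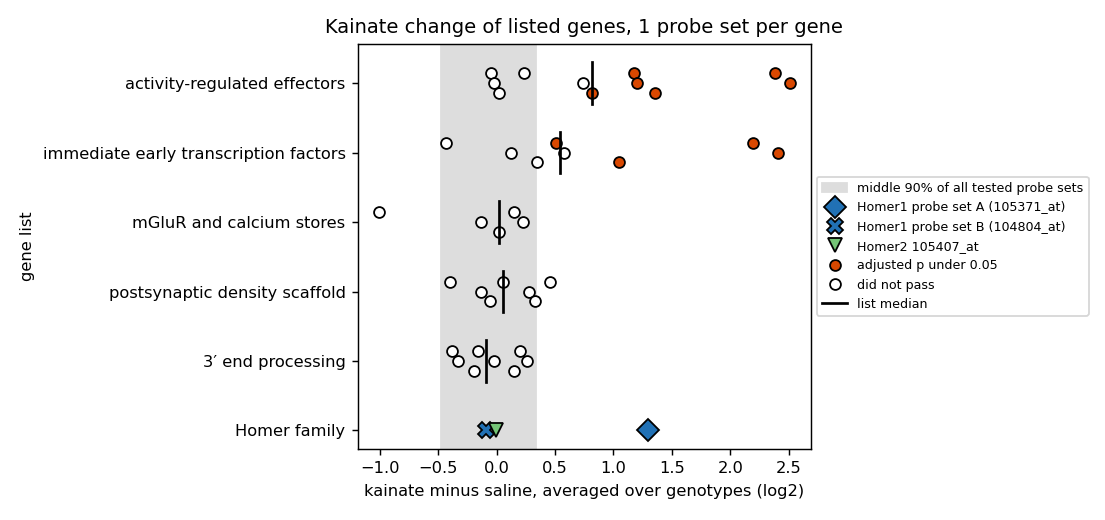
Log2 change with kainate averaged over genotypes (horizontal axis) for the tested genes of 5 lists, with 1 probe set for each gene, and for the Homer probe sets (bottom row). Filled circles passed at a limma adjusted p under 0.05, black lines are list medians and the grey band holds the middle 90% of all tested probe sets (-0.47 to 0.33). Homer1 probe set A at 1.29 lies outside the band beside the risen effector genes, and Homer1 probe set B (-0.09) and Homer2 (-0.01) lie inside it. The lowest open circle among the receptor and calcium store genes is Grm5 (-1.01).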

How the data were processed

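The deposited values are log2 summaries per probe set, for which the submitters' processing notes name R 2.4.1 and GCRMA. This method adjusts for probe-sequence background and can compress weak signals. The sources used here do not state its settings, and the log2 scale was judged from the values. Homer1 probe set A is 105371_at and B is 104804_at, Homer2 is 105407_at and Grm5 is 105897_at. Of 12477 entries 66 were control probe sets. Genes were named from the platform annotation where a probe set had 1 symbol (10581 probe sets). Groups were taken from the sample titles, which call the replicates biological, and pools of 3 animals were the unit.

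Probe sets with a value over 4 on at least 3 arrays were tested (6334). Both Homer1 probe sets exceeded 4 on all 12 arrays. A model with 1 mean per group was fitted with limma 3.58.1 in R 4.3.3 (eBayes with an intensity trend). Benjamini-Hochberg adjustment was over all tested probe sets, with a threshold of 0.05. The fit without the block was also run on simulated data in which arrays varied independently. That run does not cover arrays that move together by number, or the block. Arrays sharing a number in different groups correlated in their deviations from group means (18 pairs, r from 0.361 to 0.881), so the numbers were taken as pairs. Arrays with other numbers in different groups gave r from -0.782 to 0.583 (36 pairs), a range that overlaps. The sample titles give the numbers but state no pairing. Named were the Homer1 probe sets, list members that passed, fixed Homer partners and the 8 probe sets most like each Homer1 probe set. A gene in a list is its tested probe set with the highest mean. Members and lists were chosen with earlier results of these data known. RefSeq sequences came from GRCm38.p6. The number of arrays limits the precision.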

Additional observations from a re-analysis of the deposited data

How the results depend on the processing

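The kainate change of probe set A averaged over genotypes was positive under every alternative run. It missed the threshold after median centring (1.25), and it passed without the block in 1 and with the block in 2 of the 3 fits that removed a replicate number. It ran from 1.04 to 1.57 over the fits that left out an array or a number. In labelled mutant arrays alone the change passed with the block (1.49, also without the filter) and with the block and quantile normalization (1.52) or median centring (1.53). It also passed with array weights (1.43), and in 1 of 3 fits that removed a number, both with and without the block. It ran from 1.30 to 1.81 over left-out arrays or numbers. In control arrays it ran from 0.78 to 1.39. There it passed only with the block, in 2 of 12 fits that removed an array and 1 of 3 that removed a number. Calls over all probe sets in these 3 blocked fits ran from 1 without number 3 to 795 without number 1. The cause was not tested.

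Differences near 0 changed sign. For probe set B in control arrays quantile normalization gave 0.020, with and without the block. For the genotype difference of probe set A with saline, quantile normalization gave -0.027 and median centring -0.036, with and without the block, and left-out arrays -0.16 to 0.21. For the difference of the kainate responses of probe set B, median centring gave 0.13 with and without the block, array weights 0.028, and left-out arrays or numbers -0.17 to 0.026. The within-array difference of the probe sets rose with kainate by 1.11 to 1.66 without any one number (exact permutation p = 0.0556, the smallest then possible). Its genotype difference was 0.36 with and without the replicate block and ran from 0.19 to 0.53 over left-out arrays.

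Without the block, Homer2 passed in 0 of 12 fits with an array removed and Grm5 in 3, and with the block they passed in 12 and 8, but each in 1 of 3 with a number removed. With the block, calls over all probe sets rose from 10 to 37 (kainate in control), 11 to 23 (in labelled mutant), 26 to 483 (averaged) and 16 to 147 (genotype averaged).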
